A study of Dichomitus squalens with 16 samples.

Results

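In Dichomitus squalens, a white-rot fungus, 34 of the 11410 genes with reads were described by a protein database search as flavin oxidases of the glucose-methanol-choline (GMC) family or as copper radical oxidases. They were picked by the words GMC oxidoreductase, alcohol oxidase, cellobiose dehydrogenase, glyoxal oxidase, copper radical oxidase and related names in those descriptions. The set held 17 alcohol oxidases, 9 GMC oxidoreductases described by the family name alone, 2 aryl-alcohol oxidase-like proteins, 1 cellobiose dehydrogenase and 5 copper radical oxidases, of which 3 were described as glyoxal oxidase precursors. No description named a pyranose oxidase, a glucose oxidase or a choline dehydrogenase. A further 2 genes that match these words, the alcohol oxidase DICSQDRAFT_181599 and the glyoxal oxidase DICSQDRAFT_167685, were left out by the same rule and are given below for scale only.

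White-rot fungi open lignin with secreted heme peroxidases, and these enzymes need hydrogen peroxide as their oxidant. GMC oxidases such as aryl-alcohol oxidase and methanol oxidase take electrons from an alcohol through a bound flavin and pass them to oxygen, which leaves peroxide. Copper radical oxidases such as glyoxal oxidase do the same with small aldehydes at a copper centre. Cellobiose dehydrogenase belongs to the GMC family by its flavin domain, but it oxidises cellobiose and hands the electrons mainly to lytic polysaccharide monooxygenases, copper enzymes that cut cellulose chains. The descriptions rest on sequence likeness, so the name alcohol oxidase does not separate methanol oxidases from aryl-alcohol oxidases, and transcript levels do not measure peroxide.

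The strain was LYAD-421 SS1. Mycelium from a 4-day preculture at 28 °C with 6.8 mM glycerol was put into 100 ml of low-nitrogen asparagine-succinate medium with 1 g of plant material, which was sawdust of spruce (Picea abies) or aspen (Populus tremula), or powdered wheat bran or cotton seed hulls. Colonized material was taken on day 16 and on day 9, which gave 8 groups of 2 libraries. All groups share the strain, the preculture and the medium, and no culture without plant material was analysed here. Spruce and aspen together are called wood below, and wheat bran and cotton seed hulls the non-woody substrates. Whether replicates came from different cultures is not stated in the labels. Each p-value therefore measures the spread between these libraries, which may be technical.

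The groups averaged 8086856 ± 145560 to 8636932 ± 297801 unique reads per library (SD, n = 2), and the 34 genes took 0.146% to 0.325% of them. Levels are given as RPKM, reads scaled to the gene model's length and the library's unique reads, so that genes of unequal length can be compared. Every one of the 34 genes passed the filter on low counts, 33 had reads in every library, and 31 had at least 10 reads in every library. Replicates were close in 6 of the groups but not on wood on day 9. Of the 25 members with a mean of at least 10 RPKM, 8 differed by more than 1.5-fold between the spruce libraries of day 9 (up to 3.14-fold, for DICSQDRAFT_133067) and 3 between the aspen libraries of day 9 (up to 2.37-fold, for DICSQDRAFT_103879), against 1 with aspen on day 16 and 0 in each of the other 5 groups.

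The summed level of the 34 genes was highest with aspen on day 9. It came to 1055 ± 14.6 RPKM on day 16 and 1199.7 ± 0.866 RPKM on day 9 with spruce, and to 1189 ± 59.4 RPKM on day 16 and 1520.3 ± 30.9 RPKM on day 9 with aspen (mean ± SD, n = 2 in each group). With wheat bran the sum was 834 ± 20.0 RPKM on day 16 and 709 ± 11.9 RPKM on day 9, and with cotton seed hulls it was 1003 ± 8.82 RPKM on day 16 and 830.2 ± 22.8 RPKM on day 9. By RPKM, all wood libraries thus lay above all non-woody libraries of the same day. The day 16 sums were below those of day 9 on both woods and above them on both non-woody substrates. RPKM are scaled to total reads, whereas the fold changes below use TMM factors, which set the bulk of genes equal between libraries. These factors were 1.2 and 1.22 with spruce on day 16, but 0.702 and 0.721 with cotton seed hulls on day 16. Divided by them, the cotton seed hull sums of day 16 would stand above those of both woods. The left-out alcohol oxidase DICSQDRAFT_181599 alone had 7656 to 12205 RPKM in 12 of the libraries, far above the summed RPKM of the 34 genes. On day 9 it had 1078 and 1161 RPKM with spruce and 545 and 240 RPKM with aspen.

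**Figure D1:**
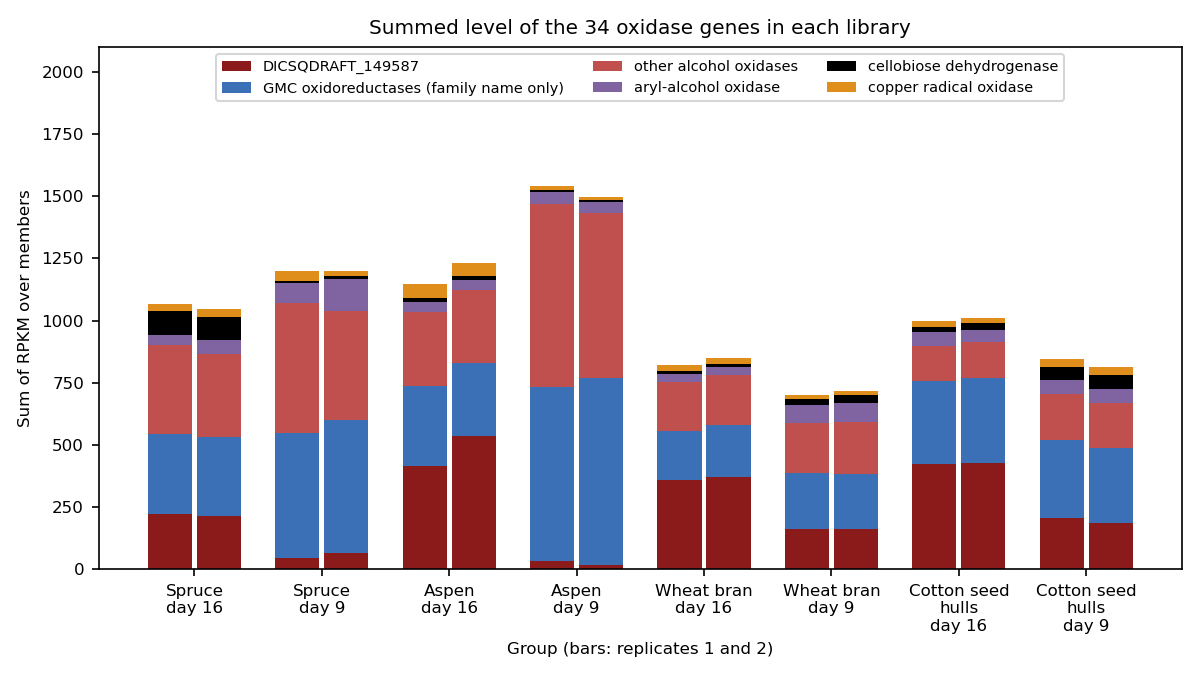
Stacked bars give the summed RPKM of the 34 genes in each of the 16 libraries, split by role, with the alcohol oxidase-like gene DICSQDRAFT_149587 drawn apart from the other alcohol oxidases. The 2 aspen libraries of day 9 are the tallest, and the share of DICSQDRAFT_149587 is small on wood on day 9 and large on day 16.

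The make-up of the sum differed between days. GMC oxidoreductases known by the family name alone added up to 318 ± 1.85 RPKM on day 16 and 521 ± 22.8 RPKM on day 9 with spruce, and to 308 ± 20.1 RPKM on day 16 and 728 ± 36.9 RPKM on day 9 with aspen. The 17 alcohol oxidases had nearly the same sums on both days with aspen, 769 ± 82.6 RPKM on day 16 and 724 ± 62.9 RPKM on day 9, yet their members changed places: DICSQDRAFT_149587 made up 61.9% of the day 16 sum there. Taken one by one, 12 of the 34 genes had their highest mean RPKM with aspen on day 9, where 13.5% of all genes tested peaked. Spruce on day 16 was the peak of 7 members (20.2% of all genes), spruce on day 9 of 4 (26.8%) and aspen on day 16 of 4 (16.8%). The remaining 7 members peaked on a non-woody substrate. With wheat bran these were 2 on day 16 (6.67% of all genes) and 1 on day 9 (5.24%). With cotton seed hulls they were 1 on day 16 (4.37%) and 3 on day 9 (6.31%). On the TMM-scaled log2 levels behind the fold changes below, 12 members again peaked with aspen on day 9, but 5 with spruce on day 16 and 3 each with spruce on day 9 and aspen on day 16. The non-woody groups then held more peaks, with 3 on day 16 and 2 on day 9 for wheat bran, and 4 on day 16 and 2 on day 9 for cotton seed hulls. Shares of all genes were counted on RPKM alone, so the peak counts on the TMM-scaled levels have none to stand beside.

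**Figure D2:**
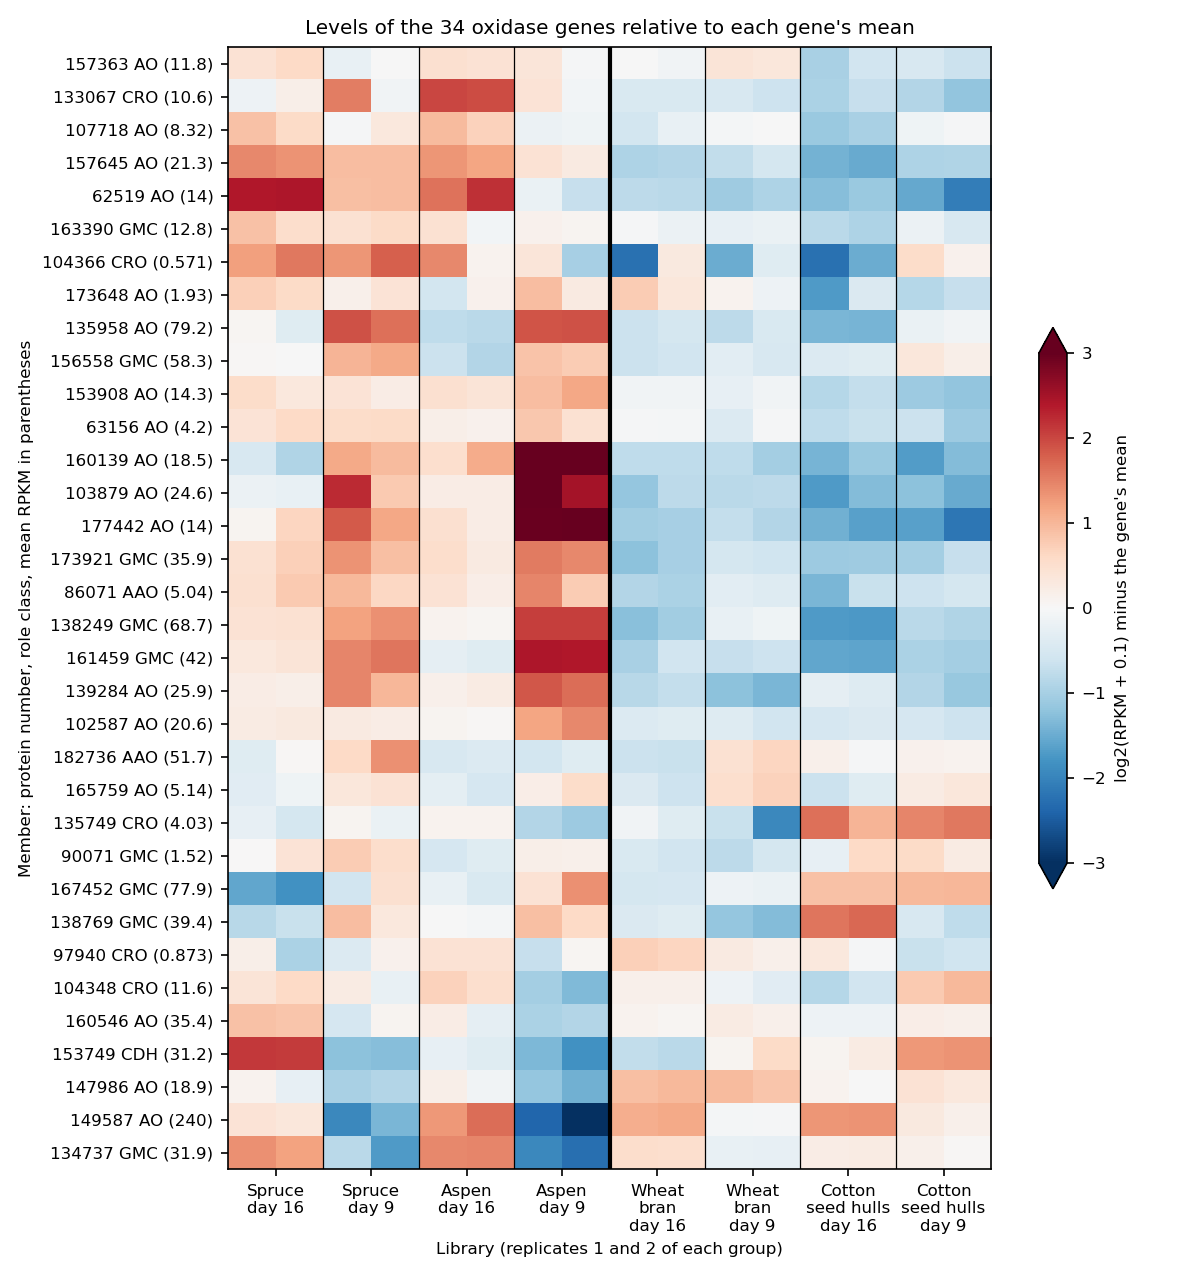
Each line is 1 of the 34 genes, each column 1 library, and the colour is log2(RPKM + 0.1) minus the gene's mean over the 16 libraries, with colours capped at -3 and 3. Role classes are AO (alcohol oxidase), GMC (family name only), AAO (aryl-alcohol oxidase), CDH (cellobiose dehydrogenase) and CRO (copper radical oxidase). A block of genes is dark red with aspen on day 9, and the lowest lines, from DICSQDRAFT_153749 to DICSQDRAFT_134737, are blue on wood on day 9.

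Whether wood and non-woody material call for different oxidases was tested on each day. Most of the 34 genes differed, more often with wood on the higher side: on day 9, 19 were higher and 8 lower on wood, and on day 16, 18 were higher and 8 lower. Set beside all 10584 genes tested, 79.4% of the members against 71.6% of all genes passed on day 9 (37.4% of all genes higher, 34.1% lower), and 76.5% against 59.7% on day 16 (29.7% higher, 30% lower). The median log2 fold change of the members was 0.79 on day 9 and 0.37 on day 16, against 0.03 on each day for all genes. Counts were tested with edgeR's quasi-likelihood F-test on all 16 libraries after TMM scaling, which sets the bulk of genes equal between libraries, and a gene passed at a Benjamini-Hochberg adjusted p under 0.05 over all genes. Fold changes are given as log2 ± SE from that fit and can differ from ratios of RPKM, which are scaled to the total reads. When libraries were scaled to their total reads alone, all genes together had a median of 0.31 on day 9 and 0.51 on day 16. Each fold change of wood given below then moved up by about as much, and the members split into 23 higher and 4 lower on day 16. The same scaling gave all genes medians of 0.23 for spruce against aspen on day 9, 0.17 for the day effect with aspen and -0.22 for that with cotton seed hulls. For the differences between day effects they were 0.22 for wood minus non-woody, -0.14 for spruce minus aspen and 0.22 for wheat bran minus cotton seed hulls. RPKM of wood and non-woody libraries did not overlap for 24 members on day 9, against 52.2% of all genes, and for 17 on day 16, against 49.7%. The reads measure shares of a library: the amount of mycelium or RNA per culture is not given, so a change in the whole cannot be told apart.

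On both days 12 members were higher on wood, a pattern of 18.6% of all genes tested, and 3 were lower on both (20% of all genes). In 3 cases, the cellobiose dehydrogenase DICSQDRAFT_153749, the GMC gene DICSQDRAFT_134737 and the glyoxal oxidase precursor DICSQDRAFT_104348, the gene was lower on wood on day 9 and higher on day 16, as were 3.37% of all genes. For DICSQDRAFT_153749 the day 16 value rests on spruce, with a mean of 95.0 RPKM. Its mean with aspen, 17.7 RPKM, lay between those with wheat bran (12.8) and cotton seed hulls (24.6). The GMC genes DICSQDRAFT_138769 and DICSQDRAFT_156558 went the other way, as did 4.67% of all genes. The alcohol oxidases were higher on wood in 11 of 17 cases on day 9 and 8 of 17 on day 16, and lower in 4 and 2. Of the 9 GMC genes, 6 were higher and 1 lower on day 9, and 5 were higher and 3 lower on day 16.

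**Figure D3:**
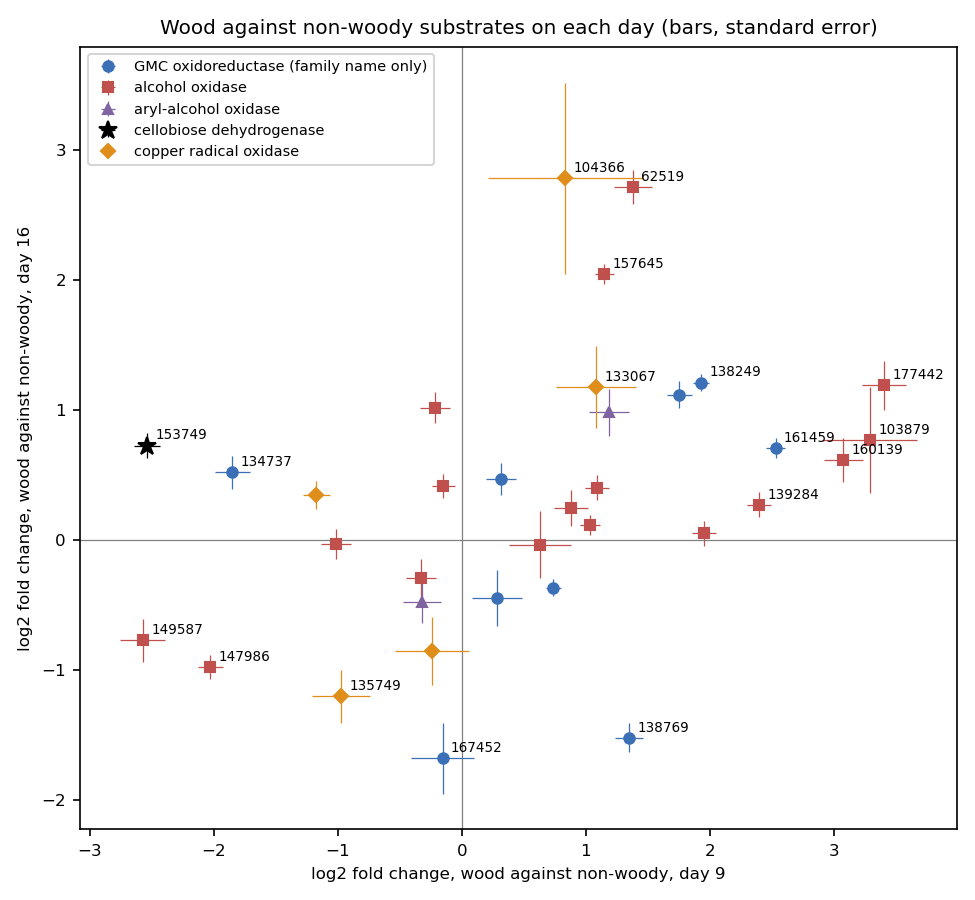
Each point is 1 gene, placed by its log2 fold change of wood against non-woody substrates on day 9 (horizontal axis) and on day 16 (vertical axis), with bars of 1 standard error and shapes for the role classes. Points in the upper right are higher on wood on both days, and DICSQDRAFT_153749 and DICSQDRAFT_134737 stand in the upper left.

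A first set of alcohol oxidases, called early here, was high on wood on day 9, with the highest mean RPKM with aspen. It does not hold every alcohol oxidase with that peak: DICSQDRAFT_102587 and DICSQDRAFT_63156 also had it and are given further below. The largest fold change of that day belonged to DICSQDRAFT_177442, an alcohol oxidase, which had 7.71 and 11.3 on day 16 and 26.3 and 16.4 RPKM on day 9 with spruce. With aspen DICSQDRAFT_177442 had 10.1 and 8.41 on day 16 and 57.1 and 63.1 RPKM on day 9. With wheat bran DICSQDRAFT_177442 had 3.48 and 3.58 on day 16 and 4.36 and 3.89 RPKM on day 9, and with cotton seed hulls 2.6 and 2.27 on day 16 and 2.26 and 1.54 RPKM on day 9. All wood libraries were above all non-woody ones on both days, and the aspen libraries of day 9 stood apart at the top. The log2 fold change of wood against non-woody was 3.40 ± 0.17 (adjusted p = 2.54e-10) on day 9 and 1.19 ± 0.19 (adjusted p = 9.09e-05) on day 16.

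The alcohol oxidase DICSQDRAFT_160139 had 6.67 and 4.93 on day 16 and 20.5 and 18.2 RPKM on day 9 with spruce. With aspen DICSQDRAFT_160139 had 13.3 and 20.2 on day 16 and 80.5 and 96.1 RPKM on day 9. With wheat bran DICSQDRAFT_160139 had 5.5 and 5.44 on day 16 and 5.49 and 4.56 RPKM on day 9, and with cotton seed hulls 3.50 and 4.24 on day 16 and 2.85 and 3.74 RPKM on day 9. On day 9 all wood libraries were higher, whereas on day 16 the second spruce library was below both wheat bran libraries. Wood against non-woody gave log2 fold changes of 3.07 ± 0.16 (adjusted p = 2.31e-10) on day 9 and 0.62 ± 0.17 (adjusted p = 0.006) on day 16.

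DICSQDRAFT_103879, another alcohol oxidase, differed widely between replicates on wood on day 9. It had 10.4 and 10.1 on day 16 and 56.3 and 20.4 RPKM on day 9 with spruce. With aspen DICSQDRAFT_103879 had 13.7 and 13.8 on day 16 and 159.5 and 67.2 RPKM on day 9. With wheat bran DICSQDRAFT_103879 had 5.21 and 6.77 on day 16 and 6.75 and 6.80 RPKM on day 9, and with cotton seed hulls 3.56 and 4.74 on day 16 and 4.96 and 4.09 RPKM on day 9. On day 9 the lowest wood library was still above every non-woody one, and the log2 fold change of wood was 3.29 ± 0.38 (adjusted p = 4.67e-05). The day 16 value of 0.77 ± 0.41 did not pass (adjusted p = 0.136).

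The alcohol oxidase DICSQDRAFT_135958 had the highest mean of this early set. It had 58.6 and 43.7 on day 16 and 212 and 177 RPKM on day 9 with spruce. With aspen DICSQDRAFT_135958 had 33.2 and 32.0 on day 16 and 208 and 211 RPKM on day 9. With wheat bran DICSQDRAFT_135958 had 35.8 and 38.6 on day 16 and 32.5 and 41.0 RPKM on day 9, and with cotton seed hulls 21.7 and 21.2 on day 16 and 48.7 and 52.2 RPKM on day 9. The wood libraries of day 9 were far above all others, and on day 16 the groups overlapped. The log2 fold change of wood was 1.95 ± 0.10 (adjusted p = 4.76e-11) on day 9 and 0.05 ± 0.10 (adjusted p = 0.685) on day 16.

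DICSQDRAFT_139284, also an alcohol oxidase, had 23.5 and 22.7 on day 16 and 55.5 and 39.9 RPKM on day 9 with spruce. With aspen DICSQDRAFT_139284 had 22.2 and 23.5 on day 16 and 72.3 and 63.9 RPKM on day 9. With wheat bran DICSQDRAFT_139284 had 11.2 and 12.1 on day 16 and 8.41 and 7.70 RPKM on day 9, and with cotton seed hulls 16.6 and 15.2 on day 16 and 10.8 and 8.99 RPKM on day 9. All wood libraries were above the non-woody ones on both days, by a log2 fold change of 2.40 ± 0.10 (adjusted p = 8.62e-13) on day 9. The small difference on day 16, 0.27 ± 0.10 (adjusted p = 0.0227), did not pass without spruce replicate 1 (adjusted p = 0.0651), aspen replicate 2 (0.0645), wheat bran replicate 1 (0.0788) or cotton seed hulls replicate 2 (0.0554) of that day.

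The alcohol oxidase DICSQDRAFT_153908 had 18.9 and 16 on day 16 and 17.3 and 15.2 RPKM on day 9 with spruce. With aspen DICSQDRAFT_153908 had 17.9 and 17.0 on day 16 and 24.6 and 29.2 RPKM on day 9. With wheat bran DICSQDRAFT_153908 had 12 and 11.9 on day 16 and 10.9 and 11.9 RPKM on day 9, and with cotton seed hulls 7.08 and 7.79 on day 16 and 5.98 and 5.59 RPKM on day 9. Wood was higher without overlap on both days, with log2 fold changes of 1.09 ± 0.09 (adjusted p = 1.81e-08) on day 9 and 0.40 ± 0.09 (adjusted p = 0.00146) on day 16.

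A second set of alcohol oxidases had its highest mean RPKM on wood on day 16. DICSQDRAFT_62519 had 43.6 and 44.7 on day 16 and 15.4 and 15.5 RPKM on day 9 with spruce. With aspen DICSQDRAFT_62519 had 25.5 and 37.4 on day 16 and 7.11 and 5.03 RPKM on day 9. With wheat bran DICSQDRAFT_62519 had 4.73 and 4.65 on day 16 and 3.87 and 4.27 RPKM on day 9, and with cotton seed hulls 3.31 and 3.69 on day 16 and 2.73 and 1.87 RPKM on day 9. Every wood library was above every non-woody library of the same day, and the spruce libraries of day 16 were the highest. Wood against non-woody gave 1.38 ± 0.15 (adjusted p = 4.83e-07) on day 9 and 2.71 ± 0.13 (adjusted p = 3.1e-11) on day 16, the largest of that day among members with at least 10 RPKM on the higher side.

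The alcohol oxidase DICSQDRAFT_157645 had 45.1 and 42.2 on day 16 and 31.7 and 31.7 RPKM on day 9 with spruce. With aspen DICSQDRAFT_157645 had 42.0 and 37.7 on day 16 and 22.5 and 19.9 RPKM on day 9. With wheat bran DICSQDRAFT_157645 had 8.63 and 8.96 on day 16 and 9.82 and 11.5 RPKM on day 9, and with cotton seed hulls 6.14 and 5.76 on day 16 and 8.64 and 8.82 RPKM on day 9. The wood and non-woody libraries did not overlap on either day, and the log2 fold changes of wood were 1.15 ± 0.07 (adjusted p = 3.86e-10) on day 9 and 2.04 ± 0.08 (adjusted p = 7.08e-13) on day 16. DICSQDRAFT_157363, an alcohol oxidase-like gene, had a narrow range and on the TMM-scaled levels peaked with wheat bran on day 9. It had 15.3 and 16.9 on day 16 and 9.56 and 11.1 RPKM on day 9 with spruce. With aspen DICSQDRAFT_157363 had 15.7 and 15.2 on day 16 and 14.4 and 11 RPKM on day 9. With wheat bran DICSQDRAFT_157363 had 11.2 and 10.5 on day 16 and 14.6 and 14.3 RPKM on day 9, and with cotton seed hulls 5.70 and 7.48 on day 16 and 8.07 and 7.10 RPKM on day 9. Its groups overlapped on day 9, when wood did not pass (-0.15 ± 0.10, adjusted p = 0.172), and the log2 fold change on day 16 was 0.42 ± 0.09 (adjusted p = 0.00121).

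Against these, a few alcohol oxidases were lower on wood on day 9. The most abundant of all 34 genes, the alcohol oxidase-like DICSQDRAFT_149587, had 223 and 214 on day 16 and 43.6 and 65.0 RPKM on day 9 with spruce. With aspen DICSQDRAFT_149587 had 415 and 538 on day 16 and 32.4 and 16.6 RPKM on day 9. With wheat bran DICSQDRAFT_149587 had 359.7 and 373 on day 16 and 162 and 164 RPKM on day 9, and with cotton seed hulls 423 and 427 on day 16 and 205 and 187 RPKM on day 9. The 4 wood libraries of day 9 were the lowest of the 16, while on day 16 the aspen libraries reached the level of the cotton seed hulls. Wood was lower, at -2.57 ± 0.18 (adjusted p = 2.24e-07) on day 9 and -0.77 ± 0.17 (adjusted p = 0.00225) on day 16, and the day 16 value was -0.29, adjusted p = 0.164 with scaling to library size alone.

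DICSQDRAFT_147986, an alcohol oxidase, had 18.2 and 14.1 on day 16 and 8.54 and 9.15 RPKM on day 9 with spruce. With aspen DICSQDRAFT_147986 had 19.1 and 15.5 on day 16 and 7.47 and 6.11 RPKM on day 9. With wheat bran DICSQDRAFT_147986 had 31.3 and 32.9 on day 16 and 32.5 and 29.9 RPKM on day 9, and with cotton seed hulls 18.2 and 16.5 on day 16 and 22.7 and 20.9 RPKM on day 9. Wood was below the non-woody libraries without overlap on day 9, and the groups overlapped on day 16. Its wood effect was -2.03 ± 0.10 (adjusted p = 1e-11) on day 9 and -0.98 ± 0.09 (adjusted p = 1.07e-07) on day 16. The alcohol oxidase DICSQDRAFT_160546 had 61.2 and 59.4 on day 16 and 23.4 and 35.2 RPKM on day 9 with spruce. With aspen DICSQDRAFT_160546 had 39.1 and 27.6 on day 16 and 17.4 and 18.2 RPKM on day 9. With wheat bran DICSQDRAFT_160546 had 36.0 and 34.7 on day 16 and 39.9 and 37.5 RPKM on day 9, and with cotton seed hulls 30.3 and 30.3 on day 16 and 38.4 and 37.0 RPKM on day 9. It was lower on wood on day 9 without overlap (-1.01 ± 0.12 (adjusted p = 5.6e-06)), and on day 16 wood and non-woody libraries overlapped (-0.03 ± 0.12 (adjusted p = 0.837)).

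**Figure D4:**
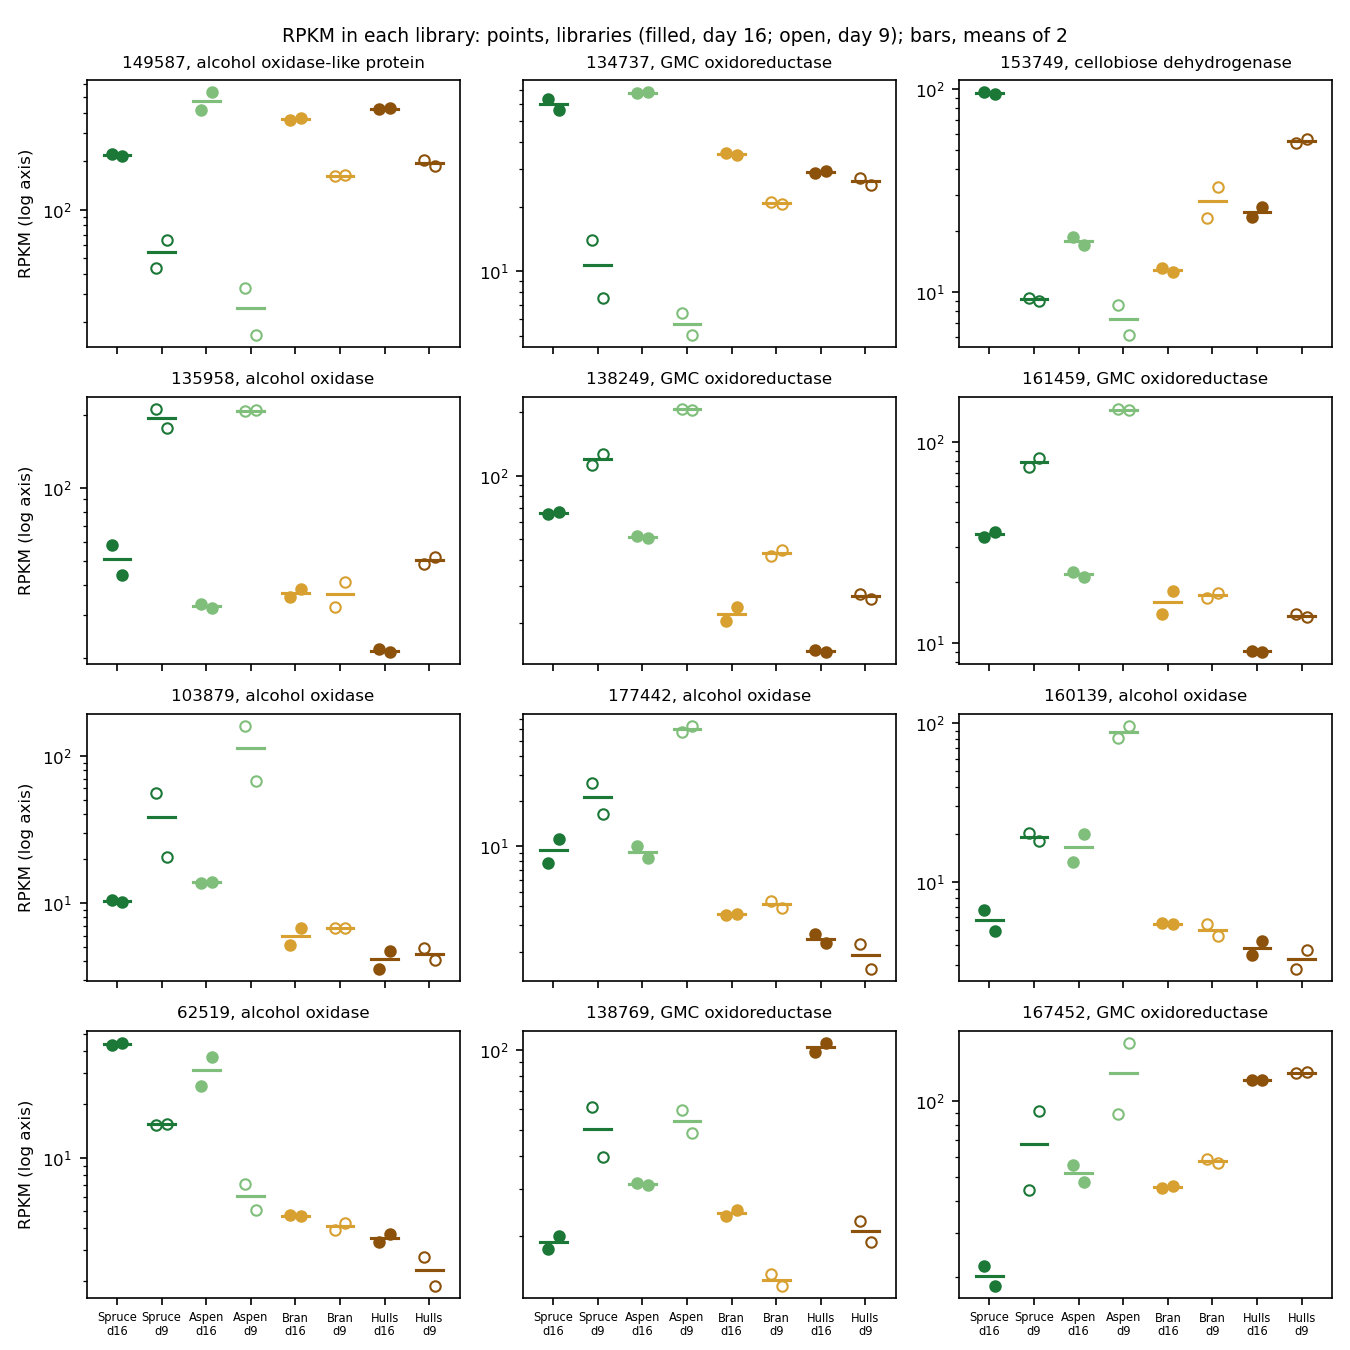
RPKM on a log axis for 12 of the genes, with filled points for day 16 libraries, open points for day 9 libraries and bars for the mean of 2. DICSQDRAFT_149587, DICSQDRAFT_134737 and DICSQDRAFT_153749 have their lowest points on wood on day 9, and the alcohol oxidases DICSQDRAFT_103879, DICSQDRAFT_177442 and DICSQDRAFT_160139 have their highest with aspen on day 9.

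The GMC oxidoreductases without a further name fell into the same kinds of pattern. DICSQDRAFT_138249 had 65.7 and 67.2 on day 16 and 112 and 126 RPKM on day 9 with spruce. With aspen DICSQDRAFT_138249 had 52.0 and 50.5 on day 16 and 207 and 205 RPKM on day 9. With wheat bran DICSQDRAFT_138249 had 20.5 and 23.7 on day 16 and 41.6 and 44.5 RPKM on day 9, and with cotton seed hulls 14.9 and 14.6 on day 16 and 27.6 and 26.1 RPKM on day 9. Wood was higher without overlap on both days, by 1.93 ± 0.06 (adjusted p = 4.82e-14) on day 9 and 1.21 ± 0.06 (adjusted p = 7.48e-11) on day 16. DICSQDRAFT_161459 was also highest with aspen on day 9, and it had 33.6 and 35.5 on day 16 and 74.8 and 83.3 RPKM on day 9 with spruce. With aspen DICSQDRAFT_161459 had 22.5 and 21.2 on day 16 and 146 and 143 RPKM on day 9. With wheat bran DICSQDRAFT_161459 had 13.8 and 18.1 on day 16 and 16.7 and 17.6 RPKM on day 9, and with cotton seed hulls 9.14 and 9.00 on day 16 and 13.9 and 13.4 RPKM on day 9. All wood libraries lay above all non-woody libraries of the same day. Its wood effect was 2.53 ± 0.08 (adjusted p = 1.71e-14) on day 9 and 0.71 ± 0.08 (adjusted p = 6.97e-07) on day 16.

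DICSQDRAFT_173921 had 39.3 and 47.3 on day 16 and 72.3 and 53.7 RPKM on day 9 with spruce. With aspen DICSQDRAFT_173921 had 41.4 and 34.2 on day 16 and 84.6 and 77.7 RPKM on day 9. With wheat bran DICSQDRAFT_173921 had 12 and 14.3 on day 16 and 19.7 and 19.0 RPKM on day 9, and with cotton seed hulls 13.4 and 13.5 on day 16 and 14.1 and 17.6 RPKM on day 9. The groups did not overlap on either day, and the log2 fold changes of wood were 1.75 ± 0.10 (adjusted p = 2.59e-10) on day 9 and 1.12 ± 0.11 (adjusted p = 1.96e-07) on day 16. DICSQDRAFT_156558 had 53.8 and 52.5 on day 16 and 107 and 116 RPKM on day 9 with spruce. With aspen DICSQDRAFT_156558 had 33.6 and 28.5 on day 16 and 95.1 and 89.5 RPKM on day 9. With wheat bran DICSQDRAFT_156558 had 33.8 and 35.4 on day 16 and 42.1 and 37.7 RPKM on day 9, and with cotton seed hulls 39.8 and 41.3 on day 16 and 66.6 and 59.9 RPKM on day 9. Wood was clearly above on day 9, and the groups overlapped on day 16. Its log2 fold change was 0.74 ± 0.06 (adjusted p = 1.51e-08) on day 9 and -0.37 ± 0.07 (adjusted p = 0.000126) on day 16, where scaling to library size alone turned the sign (0.12, adjusted p = 0.119).

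By mean RPKM, DICSQDRAFT_138769 was the one member with its peak in cotton seed hulls on day 16. It had 17.8 and 20.0 on day 16 and 61.1 and 39.6 RPKM on day 9 with spruce. With aspen DICSQDRAFT_138769 had 31.5 and 30.9 on day 16 and 59.5 and 48.5 RPKM on day 9. With wheat bran DICSQDRAFT_138769 had 23.8 and 24.9 on day 16 and 14.4 and 12.9 RPKM on day 9, and with cotton seed hulls 98.2 and 106 on day 16 and 22.8 and 19.0 RPKM on day 9. On day 9 wood was above both non-woody substrates, while on day 16 the cotton seed hull libraries stood far above the rest. Wood against non-woody gave 1.35 ± 0.11 (adjusted p = 5.57e-08) on day 9 and -1.52 ± 0.11 (adjusted p = 2.6e-08) on day 16. DICSQDRAFT_167452 had 22.1 and 18.5 on day 16 and 44.3 and 90.9 RPKM on day 9 with spruce. With aspen DICSQDRAFT_167452 had 55.9 and 47.7 on day 16 and 88.8 and 169.9 RPKM on day 9. With wheat bran DICSQDRAFT_167452 had 45.3 and 46.1 on day 16 and 58.9 and 56.8 RPKM on day 9, and with cotton seed hulls 121 and 121 on day 16 and 129 and 129.8 RPKM on day 9. It was lowest with spruce on day 16 and highest in 1 aspen library of day 9, and replicates on wood on day 9 lay far apart. The wood effect was -0.16 ± 0.26 (adjusted p = 0.609) on day 9 and -1.68 ± 0.27 (adjusted p = 0.000556) on day 16.

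DICSQDRAFT_134737 behaved unlike the other GMC genes. It had 63.5 and 56.5 on day 16 and 14.0 and 7.49 RPKM on day 9 with spruce. With aspen DICSQDRAFT_134737 had 67.4 and 68.1 on day 16 and 6.38 and 5.07 RPKM on day 9. With wheat bran DICSQDRAFT_134737 had 35.3 and 34.6 on day 16 and 21.1 and 20.6 RPKM on day 9, and with cotton seed hulls 28.7 and 29.2 on day 16 and 27.1 and 25.2 RPKM on day 9. Its wood libraries were the lowest of all on day 9 and the highest of all on day 16, with no overlap on either day. The log2 fold change of wood was -1.85 ± 0.14 (adjusted p = 5.74e-08) on day 9 and 0.52 ± 0.12 (adjusted p = 0.00271) on day 16. The 2 other GMC genes were lower in level: DICSQDRAFT_163390 averaged 12.8 RPKM over the 16 libraries and DICSQDRAFT_90071 1.52 RPKM, and the last was the one member that passed in neither wood comparison.

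The 2 aryl-alcohol oxidase-like genes name the enzyme type best known as a peroxide source of white-rot fungi. DICSQDRAFT_182736 had 37.4 and 49.3 on day 16 and 71.9 and 124 RPKM on day 9 with spruce. With aspen DICSQDRAFT_182736 had 34.4 and 36.1 on day 16 and 32.5 and 37.2 RPKM on day 9. With wheat bran DICSQDRAFT_182736 had 30.6 and 29.8 on day 16 and 66.1 and 74.7 RPKM on day 9, and with cotton seed hulls 53.3 and 46.6 on day 16 and 52.6 and 51.2 RPKM on day 9. The highest value was in 1 spruce library of day 9, the groups overlapped on both days, and wood did not pass on day 9 (-0.32 ± 0.16, adjusted p = 0.0853). On day 16 the value was -0.48 ± 0.16 (adjusted p = 0.0238); it was 0.01, adjusted p = 0.962 with scaling to library size alone, and the call ended without spruce replicate 1 (adjusted p = 0.0789), aspen replicate 1 (0.0741) or 2 (0.0536), wheat bran replicate 1 (0.0574) or cotton seed hulls replicate 1 (0.0957) of that day. The second gene, DICSQDRAFT_86071, was lower in level, with a mean of 5.04 RPKM, and was higher on wood by 1.19 ± 0.16 (adjusted p = 5.19e-06) on day 9 and 0.98 ± 0.18 (adjusted p = 0.000177) on day 16.

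The single cellobiose dehydrogenase, DICSQDRAFT_153749, had 96.0 and 94.1 on day 16 and 9.35 and 8.97 RPKM on day 9 with spruce. With aspen DICSQDRAFT_153749 had 18.5 and 16.9 on day 16 and 8.62 and 6.12 RPKM on day 9. With wheat bran DICSQDRAFT_153749 had 13.1 and 12.5 on day 16 and 23.2 and 32.9 RPKM on day 9, and with cotton seed hulls 23.2 and 26.0 on day 16 and 54.0 and 56.3 RPKM on day 9. It stood at its lowest on wood on day 9 and at its highest with spruce on day 16, and the aspen libraries of day 16 lay between the wheat bran and the cotton seed hull libraries of that day. The log2 fold change of wood was -2.54 ± 0.10 (adjusted p = 3.26e-12) on day 9 and 0.73 ± 0.10 (adjusted p = 9.67e-06) on day 16. Lytic polysaccharide monooxygenases, the enzymes it passes electrons to, were represented by 3 genes described as glycoside hydrolase family 61, the older name of the family. On wood 2 of the 3 were lower and 0 higher on day 9 (34.1% and 37.4% of all genes). On day 16, 3 were higher and 0 lower (29.7% and 30% of all genes). For 2 of them the day 16 value rests on spruce. DICSQDRAFT_108020 averaged 102 RPKM with spruce and 13.97 with aspen, which was below the 23.5 with cotton seed hulls. DICSQDRAFT_140533 averaged 56.8 RPKM with spruce, and its aspen libraries overlapped those with cotton seed hulls (means 4.77 and 4.54). For DICSQDRAFT_166212 aspen, at 26.5 RPKM, was above wheat bran (1.82) and cotton seed hulls (1.11). The monooxygenase gene DICSQDRAFT_108020 had log2 fold changes of wood of -2.58 ± 0.11 (adjusted p = 2.92e-12) on day 9 and 0.75 ± 0.10 (adjusted p = 7.98e-06) on day 16, and for spruce against aspen on day 16 it gave 2.78 ± 0.14 (adjusted p = 2.18e-09), beside 2.33 ± 0.14 (adjusted p = 2.36e-08) for the dehydrogenase. DICSQDRAFT_166212, the other abundant monooxygenase gene, gave -0.54 ± 0.24 (adjusted p = 0.0511) on day 9 and 5.22 ± 0.18 (adjusted p = 2.02e-13) on day 16.

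Copper radical oxidases were low in level throughout, with summed RPKM of 53.6 ± 2.57 with aspen on day 16 and group means of 16.4 to 33.7 in the other 7 groups. DICSQDRAFT_104348, a glyoxal oxidase precursor, had 13.8 and 15.9 on day 16 and 12.4 and 9.01 RPKM on day 9 with spruce. With aspen DICSQDRAFT_104348 had 17.0 and 15 on day 16 and 5.09 and 4.13 RPKM on day 9. With wheat bran DICSQDRAFT_104348 had 11.7 and 11.7 on day 16 and 9.36 and 8.33 RPKM on day 9, and with cotton seed hulls 5.79 and 6.96 on day 16 and 18.1 and 20.7 RPKM on day 9. It was lowest with aspen on day 9 and highest with cotton seed hulls on day 9. Wood against non-woody gave -1.17 ± 0.11 (adjusted p = 5.62e-08) on day 9, when the groups overlapped, and 0.35 ± 0.11 (adjusted p = 0.00987) on day 16, when all wood libraries were higher.

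DICSQDRAFT_133067, described as a copper radical oxidase, had 7.33 and 9.12 on day 16 and 23.5 and 7.49 RPKM on day 9 with spruce. With aspen DICSQDRAFT_133067 had 32.7 and 31.8 on day 16 and 10.7 and 7.69 RPKM on day 9. With wheat bran DICSQDRAFT_133067 had 5.83 and 5.85 on day 16 and 5.80 and 5.20 RPKM on day 9, and with cotton seed hulls 4.12 and 4.97 on day 16 and 4.34 and 3.52 RPKM on day 9. The aspen libraries of day 16 and the first spruce library of day 9 stood above all others. Wood was higher on both days, by 1.08 ± 0.32 (adjusted p = 0.013) on day 9 and 1.17 ± 0.31 (adjusted p = 0.00993) on day 16, and the day 9 value was 0.56, adjusted p = 0.000418 without spruce replicate 1. A fit with the groups of day 9 alone gave an adjusted p of 0.0757.

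The glyoxal oxidase precursor DICSQDRAFT_135749 was highest with cotton seed hulls, with 10.1 and 6.51 on day 16 and 9.00 and 9.73 RPKM on day 9, against 0.754 to 3.43 RPKM in the other 12 libraries. Its wood effect was -0.97 ± 0.23 (adjusted p = 0.00145) on day 9 and -1.20 ± 0.20 (adjusted p = 9.33e-05) on day 16, and the first of these did not pass without wheat bran day 9 replicate 1 (-0.56, adjusted p = 0.0722). DICSQDRAFT_97940, a copper radical oxidase, averaged 0.873 RPKM. DICSQDRAFT_104366, a glyoxal oxidase precursor, averaged 0.571 RPKM with 130 reads in all, 0 of them in 2 libraries. In counts, 1 of the 5 copper radical oxidases was higher and 2 were lower on wood on day 9, and 3 were higher and 2 lower on day 16. The left-out glyoxal oxidase DICSQDRAFT_167685 had 1.70 to 54.4 RPKM on wood and 377 to 1313 RPKM on the non-woody substrates.

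The 2 woods were compared to see whether a softwood and a hardwood differ. On day 9 aspen was more often the higher one: 6 members were higher and 10 lower with spruce, 47.1% of the members against 21.4% of all genes (8.26% higher, 13.2% lower). On day 16, 6 were higher and 5 lower with spruce, 32.4% against 23.5% of all genes (11.5% higher, 12% lower). The libraries of the woods did not overlap for 24 members on each day, against 62.2% of all genes on day 9 and 63.7% on day 16. With scaling to library size alone, the split on day 9 was 10 higher and 8 lower. A fit with the spruce and aspen libraries of day 9 alone called 8 members, 2 higher and 6 lower.

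On day 9, 5 of the 6 early alcohol oxidases described above were lower with spruce than with aspen, and DICSQDRAFT_135958 did not pass (-0.32 ± 0.13, adjusted p = 0.0943). Because the set was grouped by its highest mean RPKM with aspen on day 9, the direction of this count follows from that choice. DICSQDRAFT_160139 had a log2 fold change of -2.41 ± 0.18 (adjusted p = 1.63e-06) and DICSQDRAFT_177442 one of -1.71 ± 0.19 (adjusted p = 3.75e-05), with no overlap between the libraries given above. The value for DICSQDRAFT_103879 was -1.76 ± 0.46 (adjusted p = 0.028); it was -2.66, adjusted p = 0.00551 without spruce replicate 1, and it did not pass without spruce replicate 2 (-1.21, adjusted p = 0.0707), without aspen replicate 1 (-1.07, adjusted p = 0.133), or in the fit of these groups alone (adjusted p = 0.381). On the spruce side were DICSQDRAFT_62519 with 1.14 ± 0.18 (adjusted p = 0.000405), the glyoxal oxidase precursor DICSQDRAFT_104348 with 1.01 ± 0.17 (adjusted p = 0.000442), and the aryl-alcohol oxidase-like DICSQDRAFT_182736 with 1.27 ± 0.22 (adjusted p = 0.00241). The last was 0.82, adjusted p = 0.000699 without spruce replicate 2 and did not pass in the fit of these groups alone (adjusted p = 0.0914).

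On day 16 the largest difference between the woods was the cellobiose dehydrogenase, at 2.33 ± 0.14 (adjusted p = 2.36e-08) in favour of spruce. The alcohol oxidase DICSQDRAFT_160546 was higher with spruce by 0.77 ± 0.17 (adjusted p = 0.00529), and the GMC gene DICSQDRAFT_156558 by 0.69 ± 0.09 (adjusted p = 5.01e-05). Lower with spruce were DICSQDRAFT_160139, at -1.62 ± 0.22 (adjusted p = 0.00012), and the copper radical oxidase DICSQDRAFT_133067, at -2.06 ± 0.41 (adjusted p = 0.00678), which did not pass without spruce day 16 replicate 1 (-1.92, adjusted p = 0.0553). DICSQDRAFT_167452 gave -1.44 ± 0.39 (adjusted p = 0.0282), and its call ended without spruce replicate 1 (adjusted p = 0.0859) or 2 (0.158) and without aspen replicate 1 (0.103) or 2 (0.0831) of day 16.

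Between the non-woody substrates the members were more often lower with wheat bran than with cotton seed hulls. On day 9, 4 were higher and 10 lower with wheat bran, 41.2% of the members against 33.8% of all genes (15.2% higher, 18.5% lower). On day 16, 3 were higher and 11 lower, again 41.2%, against 31.4% of all genes (13% higher, 18.3% lower). Lower on both days were 7 members, as were 10.7% of all genes, and higher on both days 0 members, against 6.5% of all genes. The libraries did not overlap for 30 members on each day, against 76.6% of all genes on day 9 and 86.4% on day 16. The splits were 8 higher and 8 lower on day 9 and 12 higher and 8 lower on day 16 with scaling to library size alone, where all genes together had medians of 0.25 and 0.48. The day 16 count was 9 without wheat bran replicate 1, 9 without cotton seed hulls replicate 1 and 8 without cotton seed hulls replicate 2 of that day.

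On day 9 the wheat bran libraries were lower than the cotton seed hull libraries in the glyoxal oxidase precursor DICSQDRAFT_104348, at -1.36 ± 0.15 (adjusted p = 2.96e-06), and in the cellobiose dehydrogenase, at -1.21 ± 0.13 (adjusted p = 6.81e-06). The GMC gene DICSQDRAFT_167452 gave -1.40 ± 0.37 (adjusted p = 0.0183), and the call ended without wheat bran replicate 1 (adjusted p = 0.0803) or 2 (0.0903) and without cotton seed hulls replicate 1 (0.0603) or 2 (0.0672) of day 9. Higher with wheat bran were the alcohol oxidase genes DICSQDRAFT_153908, by 0.75 ± 0.14 (adjusted p = 0.000859), and DICSQDRAFT_157363, by 0.70 ± 0.14 (adjusted p = 0.000918). The GMC gene DICSQDRAFT_138249 was higher by 0.45 ± 0.09 (adjusted p = 0.00117), and by 0.68, adjusted p = 1.96e-05 with scaling to library size alone.

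On day 16 the GMC gene DICSQDRAFT_138769 showed the largest difference, -2.54 ± 0.16 (adjusted p = 2.89e-08), followed by DICSQDRAFT_167452 with -1.88 ± 0.37 (adjusted p = 0.00499) and the cellobiose dehydrogenase with -1.41 ± 0.14 (adjusted p = 1.77e-06). The glyoxal oxidase precursor DICSQDRAFT_135749 was lower with wheat bran on both days, at -3.02 ± 0.29 (adjusted p = 1.44e-06) on day 9 and -2.09 ± 0.26 (adjusted p = 1.79e-05) on day 16. On the side of wheat bran, DICSQDRAFT_147986 gave 0.41 ± 0.13 (adjusted p = 0.0213) and DICSQDRAFT_161459 0.34 ± 0.12 (adjusted p = 0.0329), both small. The call of DICSQDRAFT_147986 ended without wheat bran replicate 1 (adjusted p = 0.0635) or 2 (0.111) or cotton seed hulls replicate 2 (0.157), and that of DICSQDRAFT_161459 without wheat bran replicate 2 (0.14, adjusted p = 0.436) or cotton seed hulls replicate 1 (0.096) or 2 (0.153) of day 16. Without wheat bran replicate 1, DICSQDRAFT_161459 was at 0.52, adjusted p = 0.00447. With scaling to library size alone these values were 0.89 for DICSQDRAFT_147986 and 0.82 for DICSQDRAFT_161459.

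More members differed between the days on wood than on the non-woody substrates. On day 16 against day 9, 10 members were higher and 13 lower with spruce (67.6% of members, 50.6% of all genes, of which 23.6% higher and 27% lower). With aspen 11 were higher and 18 lower (85.3% of members, 63.6% of all genes, of which 31.5% higher and 32.1% lower). With wheat bran 4 were higher and 6 lower (29.4% against 17.3%, of which 9.13% higher and 8.16% lower). With cotton seed hulls 6 were higher and 8 lower (41.2% against 28.4%, of which 15.7% higher and 12.7% lower). On the 2 woods, 9 members were higher on day 16 with both (19% of all genes) and 12 lower with both (22%). Opposite directions were called for 0 members and were rare among all genes too. Of these, 0.51% were higher with spruce and lower with aspen, and 0.539% the reverse. Libraries of the days did not overlap for 26 members with spruce (73.6% of all genes), 31 with aspen (79.8%), 24 with wheat bran (64%) and 25 with cotton seed hulls (72.2%). The count for wheat bran was 5 without day 9 replicate 2 and 6 without day 16 replicate 1. The count for cotton seed hulls was 8 without day 9 replicate 2, 9 without day 16 replicate 1 and 9 without day 16 replicate 2, and its split was 3 higher and 10 lower with scaling to library size alone.

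**Figure D5:**
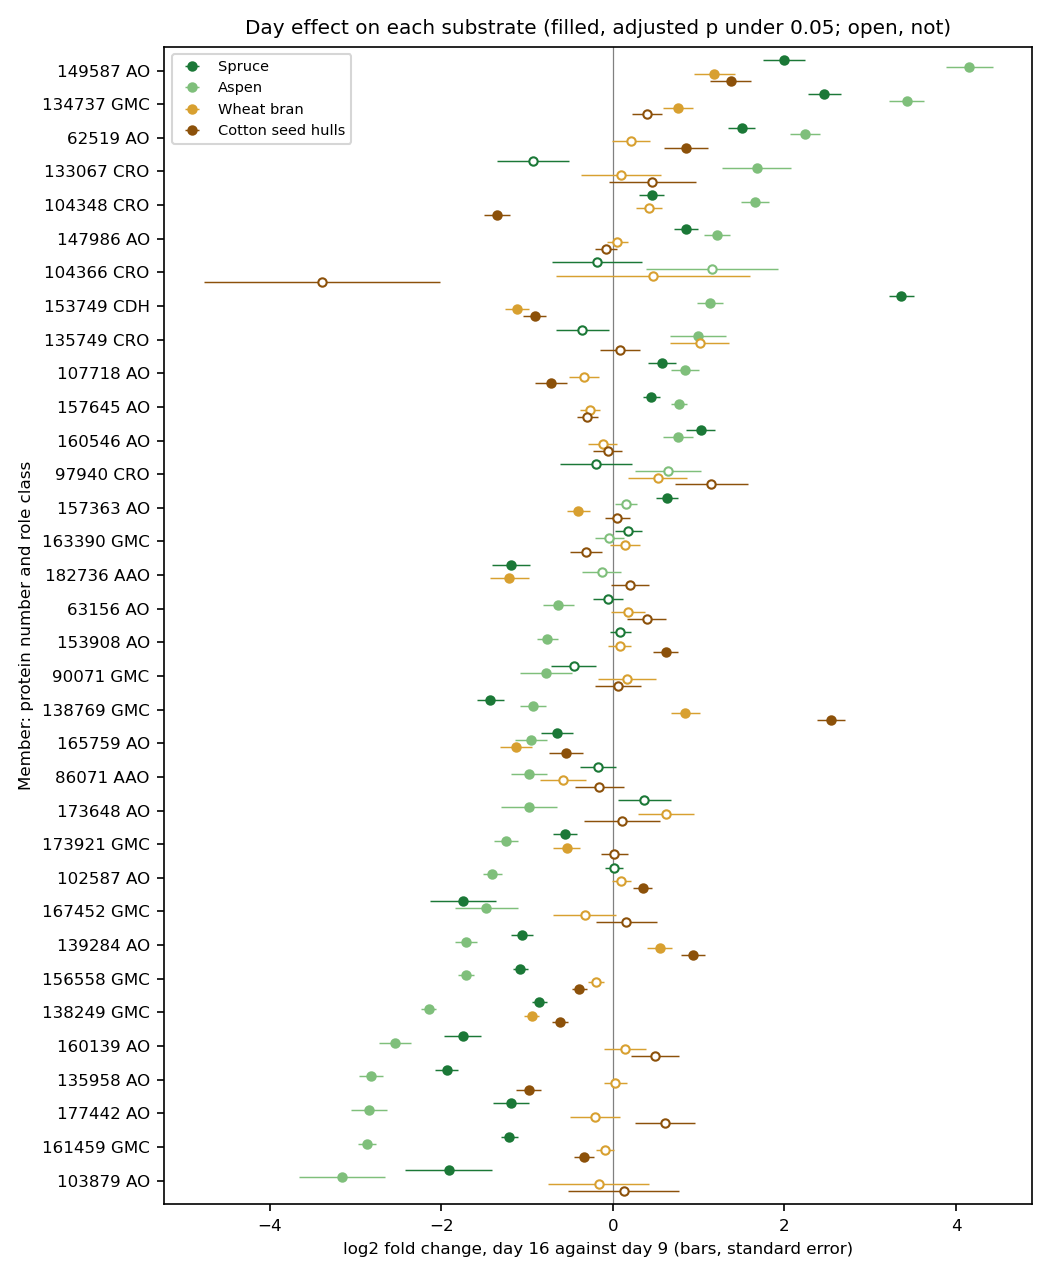
Points give the log2 fold change of day 16 against day 9 on each of the 4 substrates for the 34 genes, with bars of 1 standard error; filled points passed an adjusted p of 0.05. Genes are ordered by their value with aspen, from DICSQDRAFT_149587 at the top (4.15) to DICSQDRAFT_103879 at the bottom (-3.16).

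The genes that rose with time on wood were led by the cellobiose dehydrogenase with spruce and by DICSQDRAFT_149587 with aspen. The cellobiose dehydrogenase rose by 3.36 ± 0.15 (adjusted p = 6.7e-11) with spruce and 1.13 ± 0.15 (adjusted p = 7.82e-06) with aspen, and fell on the non-woody substrates, with -1.12 ± 0.14 (adjusted p = 5.01e-05) for wheat bran and -0.91 ± 0.13 (adjusted p = 0.00011) for cotton seed hulls. The monooxygenase gene DICSQDRAFT_108020 gave 3.86 ± 0.15 (adjusted p = 1.37e-11) with spruce, 1.18 ± 0.16 (adjusted p = 8.47e-06) with aspen, -0.52 ± 0.15 (adjusted p = 0.0226) with wheat bran and -1.10 ± 0.13 (adjusted p = 1.76e-05) with cotton seed hulls. DICSQDRAFT_149587 was the one member that rose on all 4 substrates, a pattern of 2.83% of all genes. Its values were 2.00 ± 0.25 (adjusted p = 6.34e-05) with spruce, 4.15 ± 0.27 (adjusted p = 2.3e-07) with aspen, 1.18 ± 0.24 (adjusted p = 0.00653) with wheat bran and 1.37 ± 0.24 (adjusted p = 0.00166) with cotton seed hulls, and the wheat bran call ended without wheat bran day 9 replicate 2 (adjusted p = 0.0525).

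The GMC gene DICSQDRAFT_134737 rose by 2.46 ± 0.19 (adjusted p = 2.47e-07) with spruce and 3.43 ± 0.20 (adjusted p = 9.66e-09) with aspen. With wheat bran it gave 0.76 ± 0.18 (adjusted p = 0.0108), and this call ended without day 9 replicate 1 (adjusted p = 0.0652) or 2 (0.0869) and without day 16 replicate 1 (0.0739) or 2 (0.0517). With cotton seed hulls it did not pass (0.40 ± 0.18, adjusted p = 0.121). DICSQDRAFT_62519 rose by 1.50 ± 0.16 (adjusted p = 8.8e-07) with spruce and 2.24 ± 0.18 (adjusted p = 1.59e-08) with aspen. The copper radical oxidases had 1 of 5 higher with spruce and 3 of 5 higher with aspen on day 16, and none was lower on either wood. The gene called with spruce was DICSQDRAFT_104348, and its call ended without spruce day 9 replicate 2 (0.24, adjusted p = 0.21) or spruce day 16 replicate 2 (adjusted p = 0.131) and in the fit of the spruce groups alone (0.0614).

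All 6 early alcohol oxidases fell with time with aspen and 5 of them with spruce, where 27% of all genes were lower. With spruce DICSQDRAFT_153908 did not pass (0.09 ± 0.13, adjusted p = 0.595). The 6 genes were grouped by their highest mean RPKM with aspen on day 9. A lower level with aspen on day 16 is thus built into the set, and the aspen count is no separate result. As the set was also described as high on wood on day 9, the spruce count leans the same way. The alcohol oxidases DICSQDRAFT_102587 and DICSQDRAFT_63156 also peaked with aspen on day 9 but are outside the set, and neither passed with spruce. DICSQDRAFT_135958 fell by 1.94 ± 0.14 on the log2 scale with spruce (adjusted p = 1.82e-08) and by 2.82 ± 0.14 with aspen (adjusted p = 1.92e-10). DICSQDRAFT_160139 gave -1.75 ± 0.21 (adjusted p = 1.13e-05) with spruce and -2.54 ± 0.19 (adjusted p = 3.25e-08) with aspen. With aspen, DICSQDRAFT_161459 gave -2.87 ± 0.11 (adjusted p = 2.6e-12), DICSQDRAFT_177442 -2.84 ± 0.21 (adjusted p = 2.93e-08) and DICSQDRAFT_103879 -3.16 ± 0.50 (adjusted p = 0.000509). The fall of DICSQDRAFT_103879 with spruce, -1.92 ± 0.51 (adjusted p = 0.0122), was -1.01, adjusted p = 0.098 without day 9 replicate 1 and also did not pass without day 16 replicate 1 (0.0585) or 2 (0.0655), or in the fit of the spruce groups alone (0.125). Among the 9 GMC genes, 1 rose and 6 fell with spruce, and 1 rose and 7 fell with aspen.

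With cotton seed hulls the GMC gene DICSQDRAFT_138769 rose most, by 2.54 ± 0.16 (adjusted p = 4.93e-08). With wheat bran it rose by 0.85 ± 0.17 (adjusted p = 0.00253), after DICSQDRAFT_149587 with the larger value given above. DICSQDRAFT_139284 rose by 0.93 ± 0.14 (adjusted p = 0.000111) with cotton seed hulls. Falls with wheat bran were -1.21 ± 0.22 (adjusted p = 0.0038) for the aryl-alcohol oxidase-like DICSQDRAFT_182736 and -0.95 ± 0.09 (adjusted p = 2.18e-06) for DICSQDRAFT_138249. Falls with cotton seed hulls were -1.35 ± 0.15 (adjusted p = 5.78e-06) for the glyoxal oxidase precursor DICSQDRAFT_104348 and -0.98 ± 0.14 (adjusted p = 9.79e-05) for DICSQDRAFT_135958. A rise on all 4 substrates was called for 1 member, DICSQDRAFT_149587, and for 2.83% of all genes. A fall on all 4 was called for 2 members, DICSQDRAFT_138249 and the alcohol oxidase DICSQDRAFT_165759, and for 1.52% of all genes. The cotton seed hulls call of DICSQDRAFT_165759 ended without day 9 replicate 1 (adjusted p = 0.0917) or 2 (0.175) and without day 16 replicate 1 (0.224) or 2 (0.054), and in the DESeq2 test (0.0979). Its spruce call ended without spruce day 16 replicate 1 (adjusted p = 0.0714).

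The differences between day effects were tested directly. Between wood and non-woody substrates 10 members had a higher and 15 a lower day effect on wood, 73.5% of the members against 52.8% of all genes (25.1% higher, 27.7% lower). The cellobiose dehydrogenase led with 3.26 ± 0.14 (adjusted p = 6.82e-11), followed by DICSQDRAFT_134737 with 2.37 ± 0.19 (adjusted p = 2.76e-07). On the lower side were DICSQDRAFT_138769 with -2.87 ± 0.16 (adjusted p = 2.79e-09) and DICSQDRAFT_103879 with -2.52 ± 0.56 (adjusted p = 0.00495). Between spruce and aspen the difference passed for 11 members higher and 7 lower with spruce, 52.9% against 19% of all genes (10.8% higher, 8.22% lower). The split was 8 and 8 with scaling to library size alone, and 8 and 3 in a fit of the spruce and aspen libraries alone.

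The cellobiose dehydrogenase had the larger day effect with spruce, by 2.23 ± 0.21 (adjusted p = 4.17e-06), and DICSQDRAFT_161459 the smaller fall, with a difference of 1.66 ± 0.14 (adjusted p = 1.15e-06). DICSQDRAFT_149587 had the smaller rise with spruce, with -2.16 ± 0.35 (adjusted p = 0.00185). The copper radical oxidase DICSQDRAFT_133067 gave -2.60 ± 0.58 (adjusted p = 0.0149); it was -1.56, adjusted p = 8.86e-05 without spruce day 9 replicate 1, and it did not pass without spruce day 16 replicate 1 (0.0556) or aspen day 9 replicate 2 (0.0556), or in the fit of the 2 woods alone (0.115). Between wheat bran and cotton seed hulls 2 members had a higher and 2 a lower day effect with wheat bran, 11.8% against 9.39% of all genes (4.29% higher, 5.1% lower), and a fit of these 2 substrates alone called 8, 3 higher and 5 lower. Higher were DICSQDRAFT_104348 with 1.77 ± 0.22 (adjusted p = 5.48e-05) and DICSQDRAFT_135958 with 1.01 ± 0.20 (adjusted p = 0.00406), and lower was DICSQDRAFT_138769 with -1.70 ± 0.23 (adjusted p = 0.000277). DICSQDRAFT_182736 gave -1.41 ± 0.31 (adjusted p = 0.0182), and its call ended without wheat bran day 9 replicate 2 (adjusted p = 0.0625), wheat bran day 16 replicate 1 (0.0608) or 2 (0.0687), cotton seed hulls day 9 replicate 1 (0.0592) or 2 (0.0702), or cotton seed hulls day 16 replicate 1 (0.0766).

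Members that changed alike were compared by Pearson's r of their log2 levels over the 8 group means, as a description without a test, since all genes share the same libraries. Over all 561 pairs of members the median r was 0.058, and the pairs below are the highest or the best match of a gene. The GMC gene DICSQDRAFT_173921 and the aryl-alcohol oxidase-like DICSQDRAFT_86071 were most alike (r = 0.989), followed by the early alcohol oxidases DICSQDRAFT_103879 and DICSQDRAFT_177442 (r = 0.98) and DICSQDRAFT_160139 and DICSQDRAFT_103879 (r = 0.969). The GMC genes DICSQDRAFT_138249 and DICSQDRAFT_161459 had an r of 0.965. The cellobiose dehydrogenase was most like the alcohol oxidase DICSQDRAFT_160546 (r = 0.907), DICSQDRAFT_149587 most like the GMC gene DICSQDRAFT_134737 (r = 0.927), and DICSQDRAFT_157645 most like DICSQDRAFT_62519 (r = 0.904).

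Some members also lie side by side in the RefSeq gene order of assembly Dichomitus squalens v1.0. The alcohol oxidases DICSQDRAFT_102587 and DICSQDRAFT_153908 are direct neighbours, with an r of 0.796, as are the GMC genes DICSQDRAFT_173921 and DICSQDRAFT_163390, with an r of 0.607. With 2 genes between them, DICSQDRAFT_86071 and DICSQDRAFT_161459 had an r of 0.900, DICSQDRAFT_156558 and DICSQDRAFT_90071 an r of 0.788, and DICSQDRAFT_107718 and DICSQDRAFT_63156 an r of -0.00669. With 1 gene between them, DICSQDRAFT_165759 and DICSQDRAFT_177442 had an r of 0.042. Over all tested genes the median r was 0.168 for 9463 pairs of direct neighbours, of which 15% exceeded 0.75, and 0.0357 for 9102 pairs with 2 genes between them, of which 9.66% exceeded 0.75. Nearness went with both like and unlike levels among the members.

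Enzymes that use or remove peroxide, enzymes that may take over products of such oxidases, and laccases were counted for comparison on wood against non-woody substrates. Among all 10584 genes tested, 71.6% passed on day 9 (37.4% higher, 34.1% lower) and 59.7% on day 16 (29.7% higher, 30% lower). The counts in this and the next 2 paragraphs are to be read beside these shares. Of 11 class II peroxidases, the peroxide-using lignin enzymes, 2 were higher and 4 lower on wood on day 9, and 3 were higher and 1 lower on day 16. The 2 most abundant, both manganese peroxidases, moved apart on day 9: DICSQDRAFT_59877 gave 3.79 ± 0.19 (adjusted p = 1.4e-08) and DICSQDRAFT_141471 -4.76 ± 0.18 (adjusted p = 4.23e-10). On day 16 DICSQDRAFT_59877 did not pass (0.19 ± 0.22, adjusted p = 0.484) and DICSQDRAFT_141471 was lower, at -2.17 ± 0.15 (adjusted p = 2.44e-07). The dye-decolorizing peroxidase DICSQDRAFT_150405 was higher by 4.30 ± 0.13 (adjusted p = 2.69e-14) on day 9 and 2.89 ± 0.12 (adjusted p = 4.44e-12) on day 16. The chloroperoxidase-like DICSQDRAFT_113070, the other of the 2 further heme peroxidases, gave -0.20 ± 0.08 (adjusted p = 0.0277) and -0.25 ± 0.08 (adjusted p = 0.0125). Of these 2 genes, 1 was higher and 0 were lower on day 9 without replicate 1 of spruce, aspen or wheat bran or replicate 2 of cotton seed hulls of that day, and on day 16 without replicate 1 of spruce, aspen or cotton seed hulls or replicate 2 of wheat bran.

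Of 6 genes for peroxide removal, 4 were higher and 2 lower on wood on day 9, and 1 was higher and 1 lower on day 16. A catalase, DICSQDRAFT_82531, which splits peroxide to water and oxygen, was lower, at -1.91 ± 0.08 (adjusted p = 2.34e-12) on day 9 and -0.96 ± 0.08 (adjusted p = 3.1e-08) on day 16. The cysteine peroxiredoxin DICSQDRAFT_56656, a thiol peroxidase, was higher by 0.48 ± 0.11 (adjusted p = 0.00144) and 1.26 ± 0.11 (adjusted p = 2.59e-07). Of 3 genes described as NAD-dependent formate dehydrogenases, which oxidise formate to carbon dioxide, 3 were lower on wood on day 9, and 1 was higher and 1 lower on day 16. The gene DICSQDRAFT_51840 gave -1.85 ± 0.08 (adjusted p = 1.6e-12) on day 9 and 0.32 ± 0.08 (adjusted p = 0.002) on day 16, and the second of these genes, DICSQDRAFT_88541, gave -1.50 ± 0.23 (adjusted p = 0.000258) and -0.11 ± 0.23 (adjusted p = 0.708).

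Of 3 aryl-alcohol dehydrogenases, which in white-rot fungi return aromatic aldehydes to alcohols, 1 was higher and 1 lower on day 9, and 2 were higher and 0 lower on day 16. The day 16 count was 1 without aspen day 16 replicate 2 or wheat bran day 16 replicate 2. DICSQDRAFT_139831 was higher by 1.54 ± 0.19 (adjusted p = 3.87e-05) and 0.92 ± 0.19 (adjusted p = 0.00182), and DICSQDRAFT_180047 did not pass on either day (-0.14 ± 0.15, adjusted p = 0.413, and 0.27 ± 0.15, adjusted p = 0.132). Of 12 laccases and multicopper oxidases, which use oxygen and no peroxide, 8 were higher and 2 lower on day 9, and 8 were higher and 3 lower on day 16. Laccase B, DICSQDRAFT_110823, was higher by 7.67 ± 0.32 (adjusted p = 8.77e-09) and 5.18 ± 0.29 (adjusted p = 2.02e-07), and the laccase DICSQDRAFT_176907 by 6.38 ± 0.13 (adjusted p = 1.04e-15) and 3.89 ± 0.12 (adjusted p = 3.37e-13). With scaling to library size alone 6 class II peroxidases were higher and 1 lower on day 16, and 4 genes of peroxide removal were higher and 1 lower.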

How the data were processed

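Read counts and RPKM per gene model were deposited by the authors for 16 libraries. Per the file headers, counts are unique reads per gene. The deposited RPKM equalled values recomputed from counts, gene length and the total of the library. For the aligner, counting tool, genome build and strand setting, nothing is given in the sources used here. Reads of overlapping genes, and reads that match several of these related genes, could not be assigned further from unique counts. A gene not listed for a library was set to 0 reads. Gene descriptions are those in the files, and 11371 of 11410 locus tags matched RefSeq.

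Counts were tested with edgeR 4.0.16 in R 4.3.3 (filterByExpr with minimum count 10 and minimum total 15, which left 10584 genes and removed 826; TMM; robust quasi-likelihood fit, 1 mean per group, 8 residual degrees of freedom; common biological coefficient of variation 0.0982). The two-sided F-test gave 13 contrasts, adjusted by Benjamini-Hochberg over all genes at 0.05, and the SE is the size of the log2 fold change over the root of F. No p was adjusted over the 34 genes alone. On simulated counts of 10584 genes, 89% of genes changed 2-fold were recovered for wood against non-woody substrates on day 9, with 8 false calls over both fold sizes, and 79% for spruce against aspen on day 9, with 11. Only 100 genes were changed at each fold size, and each gene had the same spread in all groups. In the data 71.6% and 21.4% of genes passed in these comparisons, and wood libraries of day 9 were more spread and deviated in part alike. The simulated shares therefore do not carry over to these data.

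Alternatives were DESeq2 size factors, library size alone, no filter, the DESeq2 1.42.0 test, a replicate block, a fit of the compared groups alone, and leaving out each library. Values in every library were given for the 12 members with the highest mean RPKM, for up to 3 members in each direction per comparison and for up to 2 per difference of day effects. These last 2 choices took the largest called changes at a mean of at least 10 RPKM, and for comparisons of 2 groups without overlap. Of each other gene list the 2 genes with the highest mean RPKM were named. The members, lists and rules were chosen with earlier results of these data known.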

Additional observations from a re-analysis of the deposited data

Results flagged for a closer look

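For 12 values the day effect (day 16 against day 9) differed between substrates by a direct test of the difference, 4 in each of 3 comparisons. Values are log2 differences ± SE, and their adjusted p-values from the edgeR test are given above. Between wood and non-woody substrates, the day effect of the cellobiose dehydrogenase DICSQDRAFT_153749 was larger on wood by 3.26 ± 0.14 and that of the GMC gene DICSQDRAFT_134737 by 2.37 ± 0.19. On the lower side the difference was -2.87 ± 0.16 for the GMC gene DICSQDRAFT_138769 and -2.52 ± 0.56 for the alcohol oxidase DICSQDRAFT_103879. The cellobiose dehydrogenase rose on both woods and fell on both non-woody substrates, and DICSQDRAFT_138769 fell on both woods and rose on both non-woody substrates.

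Between spruce and aspen, the differences were 2.23 ± 0.21 for DICSQDRAFT_153749, 1.66 ± 0.14 for the GMC gene DICSQDRAFT_161459, -2.60 ± 0.58 for the copper radical oxidase DICSQDRAFT_133067 and -2.16 ± 0.35 for the alcohol oxidase-like DICSQDRAFT_149587. The value for DICSQDRAFT_133067 rests on libraries of day 9 that differed 3.14-fold with spruce. Between wheat bran and cotton seed hulls, they were 1.77 ± 0.22 for the glyoxal oxidase precursor DICSQDRAFT_104348, 1.01 ± 0.20 for the alcohol oxidase DICSQDRAFT_135958, -1.70 ± 0.23 for DICSQDRAFT_138769 and -1.41 ± 0.31 for the aryl-alcohol oxidase-like DICSQDRAFT_182736. The part of depth or library quality in these differences was not tested.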

How the results depend on the processing

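Of the 231 calls of the 34 genes in 13 comparisons, 61 of 1361 values under other settings and 189 of 1524 values with a library left out no longer passed, and 3 changed sign. All 3 did so with scaling to library size alone: DICSQDRAFT_156558 moved to 0.12 and DICSQDRAFT_182736 to 0.0085 on wood against non-woody substrates on day 16, and DICSQDRAFT_102587 moved to 0.087 in the comparison of wheat bran with cotton seed hulls on day 16. A fit of the compared groups alone called 8 members for spruce against aspen on day 9 (16 in the fit of all libraries), 11 for the difference of day effects between spruce and aspen (18), and 8 for that between wheat bran and cotton seed hulls (4). Only the compared libraries then set the spread. Over all genes tested, the SD of the log2 ratio of replicates was 0.411 with spruce and 0.398 with aspen on day 9, against 0.259 to 0.350 in the other groups. The fit of all libraries shares 1 spread per gene, so its SE and adjusted p may be too small for wood on day 9. For the difference between wood and non-woody substrates all groups are compared, so a fit of the compared groups alone does not apply. With 1 library left out, the counts ranged from 8 to 10 for wheat bran against cotton seed hulls on day 16 (14 with all), from 5 to 7 for the day effect with wheat bran (10) and from 8 to 10 for that with cotton seed hulls (14). A group left with 1 library was assumed to vary like the others. Over 28 pairs of groups the correlation of same-numbered deviations was -0.0576 to 0.358, with 1 over 0.1. That 1 was between spruce and aspen on day 9, whose same-numbered libraries deviated in part alike. These wood libraries of day 9 may thus not be independent, as the test takes them to be. A replicate block fits 1 shift common to all groups, so it does not describe a pairing of these groups alone. With the replicate block, 27 and 26 members were called for wood on day 9 and day 16, 16 and 12 for spruce against aspen, 13 and 13 between the non-woody substrates, and 23, 29, 11 and 14 for day 16 against day 9 with spruce, aspen, wheat bran and cotton seed hulls. Differences of day effects were called for 25, 18 and 4. The settings for the other gene lists were added after the data had been seen. With library size alone, 1 aryl-alcohol dehydrogenase was higher and 0 lower on wood on day 9, and likewise 1 and 0 of the 2 further heme peroxidases. The fit of the groups of day 16 alone gave 4 higher and 3 lower class II peroxidases and 2 higher and 2 lower genes of peroxide removal. Depth limits the 3 members with under 10 reads in some library.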

Other observations

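A few members were not given by library above. The alcohol oxidase DICSQDRAFT_102587 had 22.1 and 23.1 on day 16 and 22.5 and 21.9 RPKM on day 9 with spruce, and 19.8 and 19.3 on day 16 and 42.8 and 50.9 RPKM on day 9 with aspen. With wheat bran DICSQDRAFT_102587 had 14.1 and 14.6 on day 16 and 14.4 and 12.6 RPKM on day 9, and with cotton seed hulls 13.2 and 13.8 on day 16 and 13.1 and 12.2 RPKM on day 9. It stood out with aspen on day 9 alone, and spruce against aspen on that day gave -1.30 ± 0.11 (adjusted p = 7.15e-07). The alcohol oxidase DICSQDRAFT_107718 had 14.2 and 11.5 on day 16 and 7.55 and 9.61 RPKM on day 9 with spruce, and 14.9 and 12.5 on day 16 and 6.84 and 7.03 RPKM on day 9 with aspen. It was higher on wood on day 16, by 1.02 ± 0.12 (adjusted p = 1.74e-06). The alcohol oxidase DICSQDRAFT_63156 had 1.79 to 6.94 RPKM over the 16 libraries and DICSQDRAFT_165759 3.07 to 7.99 RPKM.

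The ratio of the highest to the lowest group mean RPKM is not given for the glyoxal oxidase precursor DICSQDRAFT_104366, whose lowest group mean of 0.0346 RPKM rests on too few reads. Among the other members it was largest at 31.7 for DICSQDRAFT_177442, 27.3 for DICSQDRAFT_103879, 26.8 for DICSQDRAFT_160139, 19.4 for DICSQDRAFT_149587 and 19.2 for DICSQDRAFT_62519; these 5 are alcohol oxidases by description. Every member passed in at least 1 of the 13 comparisons and at most in 11. The share of all genes that passed in at least 1 was not counted, but 71.6% passed for wood on day 9 alone.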
